A study of Mus musculus with 12 samples.

Results

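Oxidative phosphorylation is carried out by protein complexes of the mitochondrial inner membrane, and 29 genes that encode their subunits were followed here in cells selected from mouse spleen. The genes were taken from a fixed list of symbols, and all 29 were found among the 16805 genes of the neutrophil table and the 16954 genes of the monocyte table. They comprise 10 subunits of complex I, 4 of complex II, 4 of complex III, 6 of complex IV, 4 of complex V and cytochrome c. Ndufa4 was placed with complex IV, to which its product is now assigned, although its name is that of a complex I gene. RNA was sequenced from 12 libraries in 4 groups of 3, all from wild-type mice. Neutrophils were selected with an antibody against Ly6G, a neutrophil surface protein, from tumor-bearing mice without therapy (control) and from mice 12 h after cryo-thermal therapy (CTT), in which a tumor is frozen and then heated in place. Monocytes were selected with an antibody against the chemokine receptor CCR2 from mice 5 days after CTT, and these mice either did or did not also receive anti-Ly6G, which is given to deplete neutrophils. Both monocyte groups therefore had CTT. No source used here gives the strain, age or tumor type, or how many mice each library stands for, and the p-values therefore rest on the variation among these libraries, which may be partly technical.

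Complex I (NADH dehydrogenase) and complex II (succinate dehydrogenase) pass electrons from NADH and succinate to ubiquinone, complex III passes them on to cytochrome c, and complex IV (cytochrome c oxidase) passes them to oxygen. Complexes I, III and IV pump protons, and complex V (ATP synthase) uses the proton gradient to make ATP. Mature neutrophils hold few mitochondria and make most of their ATP by glycolysis, whereas monocytes and macrophages use respiration to a degree that varies with their activation. Some subunits are encoded by mitochondrial DNA. None of the 13 listed was present in either table, so those could not be analysed here.

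Each library held 30942849 to 35956571 counted reads, and the 29 subunits took 0.3225% to 0.6075% of them. The lowest count of any member in any library was 359 (Ndufa5), so all 29 passed the filter on low counts in both tables. Control replicate 1 of the neutrophils stood apart. The summed level of 14 erythroid markers was 15646 CPM there (counts scaled to library size by TMM) against 441 to 2654 in the other 5 neutrophil libraries, and that of 20 cell cycle genes was 8141 against 1561 to 2280. Its 15 neutrophil markers summed to 4198 CPM, against 4554 to 12981 in the others. Of the 15, 2 rose with CTT, where 0.567% of all tested genes did. Both selections carried transcripts of other cells. The sum of 10 B cell markers was 3306 CPM in control replicate 1 and 6998 to 8216 in the other 5 neutrophil libraries. In the monocyte libraries it was 3001 to 5636 CPM. Neither table holds a gene at 0 in all of its libraries, so a listed marker being above 0 there carries no weight. Of 12 T and NK cell markers, 11 were present in each table. In such mixed samples, fewer cells of a type and less RNA per cell cannot be told apart.

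On a scale that allows genes to be compared, the deposited FPKM (counts per gene length and library total), Atp5b, Cox4i1 and Atp5a1 stood highest and cytochrome c lowest in all 4 groups. Atp5b, the catalytic beta subunit of ATP synthase, was at 546 ± 219 FPKM in control neutrophils, 364 ± 7.75 after CTT, 329 ± 6.28 in monocytes after CTT and 362 ± 13 with anti-Ly6G (mean ± SD, n = 3). Cox4i1, the main regulatory subunit of complex IV, followed at 398 ± 95, 334 ± 8.32, 302 ± 1.99 and 325 ± 14 FPKM in the same order. Atp5a1, the alpha subunit, came next, at 252 ± 4.61 FPKM in CTT neutrophils and 248 ± 3.09 in CTT monocytes. Cycs, the soluble electron carrier cytochrome c, was the lowest, at 14.8 ± 7.11, 11.1 ± 2.24, 11.8 ± 0.786 and 17.5 ± 1.28 FPKM. The gene length used for Cycs was 3154 bases and that for Cox5a 3153 bases, the longest of the 29, while that for Cox7c was 449 bases, and FPKM falls with this length whatever transcript is made.

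Within each complex the order was broad. In CTT monocytes complex I ran from Ndufa2 (74.6 ± 3.28 FPKM), an accessory subunit, down to Ndufb8 (24.2 ± 1.27), another accessory subunit. Complex II ran from the flavoprotein Sdha (92.5 ± 1.61) to the membrane anchor Sdhc (56.7 ± 4.86), and Sdhc did not differ from its fellow anchor Sdhd (58.6 ± 1.61) beyond the SD. Complex III ran from the core protein Uqcrc1 (88.6 ± 1.95) to cytochrome c1, Cyc1 (49.6 ± 1.02). In complex IV, Cox4i1 was highest and Cox5a lowest (30.0 ± 2.09), and the 4 subunits Cox6c (153 ± 14.5), Cox7c (149 ± 5.62), Ndufa4 (145 ± 8.39) and Cox5b (144 ± 2.26) lay within their SDs of each other. Complex V ran from Atp5b to Atp5c1 (92.5 ± 2.65), the central gamma subunit. In CTT neutrophils the same genes were the highest and lowest of complexes II to V, and complex I ran from Ndufb5 (40.2 ± 2.55 FPKM) to Ndufb8 (20.1 ± 0.74).

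Set side by side, 20 of the 29 subunits had a higher FPKM in every CTT monocyte library than in any CTT neutrophil library, 3 had a lower one (Cox4i1, Atp5b and Atp5c1) and 6 overlapped. Among the 12793 genes tested in both tables, 39.6% were higher and 17.3% lower in the same way. The ratio of the group means was highest for Ndufa2, at 2.07, and for Cox5a, at 2.04, and lowest for Atp5c1, at 0.811. Cox5a stood at 14.7 ± 0.969 FPKM in CTT neutrophils and 30.0 ± 2.09 in CTT monocytes. The tables differ in cells, day and selection and were scaled separately, so these differences were not tested.

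**Figure D1:**
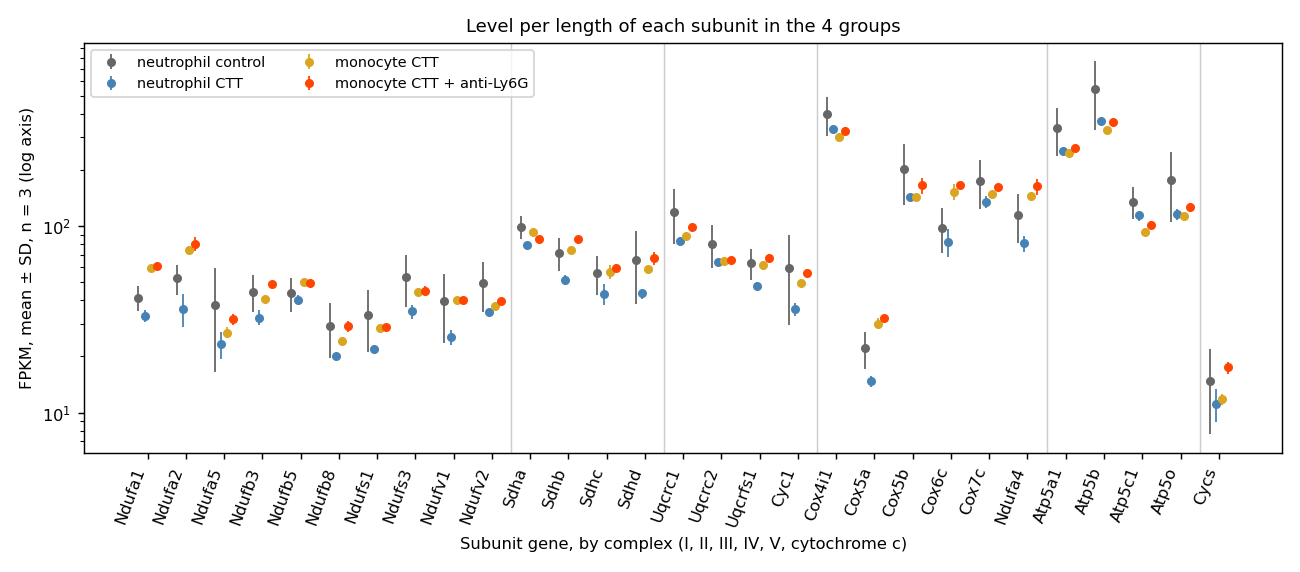
Level per length (FPKM, log axis) of each of the 29 subunit genes, grouped by complex, with points for the mean and bars for the SD of 3 libraries in each of the 4 groups. Atp5b is highest and Cycs lowest in every group, and the bars of the neutrophil controls are the widest, with 546 ± 219 for Atp5b.

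In neutrophils, the comparison of 12 h after CTT with control addresses the early state of these cells after the therapy, and none of the 29 subunits passed the test in either direction (edgeR's quasi-likelihood test, adjusted p of 0.324 or more). Among all 13058 tested genes 0.567% rose and 0% fell. All 29 fitted changes were below 0, from a log2 fold change of −0.06 (Ndufb5) to −0.68 (Cyc1), with a median of −0.45 against −0.02 over all tested genes, and without control replicate 1 the median was −0.14 with 24 members below 0 and 5 above. At an unadjusted p under 0.05, 3 members were lower (Ndufs3, Sdhb and Cox5a), where 5.74% of all tested genes were. In 14 of 29 members, or 48.3%, every CTT library was below every control library, against 11% of all tested genes. Control replicate 1 was the highest library for all 29 members, so setting it aside could not change this count of 14. Without it, 17.6% of all tested genes had every CTT library below both remaining controls. Every CTT library was above them in 0 members, against 17.9% of all tested genes.

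The difference sat largely in control replicate 1. It was the highest of the 6 libraries for all 29 members, while it was the highest for 36% of all tested genes. The ratio of control replicate 1 to the mean of the other 5 libraries had a median of 1.69 over the members, from 1.35 (Ndufb5) to 2.58 (Ndufa5), and a median of 0.973 over all tested genes. It was 1.5 or more for 24 of the 29 members and for 21% of all tested genes. The summed level of the 29 members was 6052 CPM in control replicate 1, 3695 and 3481 in the other controls, and 3231, 3403 and 3392 after CTT. The erythroid and cell cycle sums of that library moved with it, and their part in the subunit levels was not tested.

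**Figure D2:**
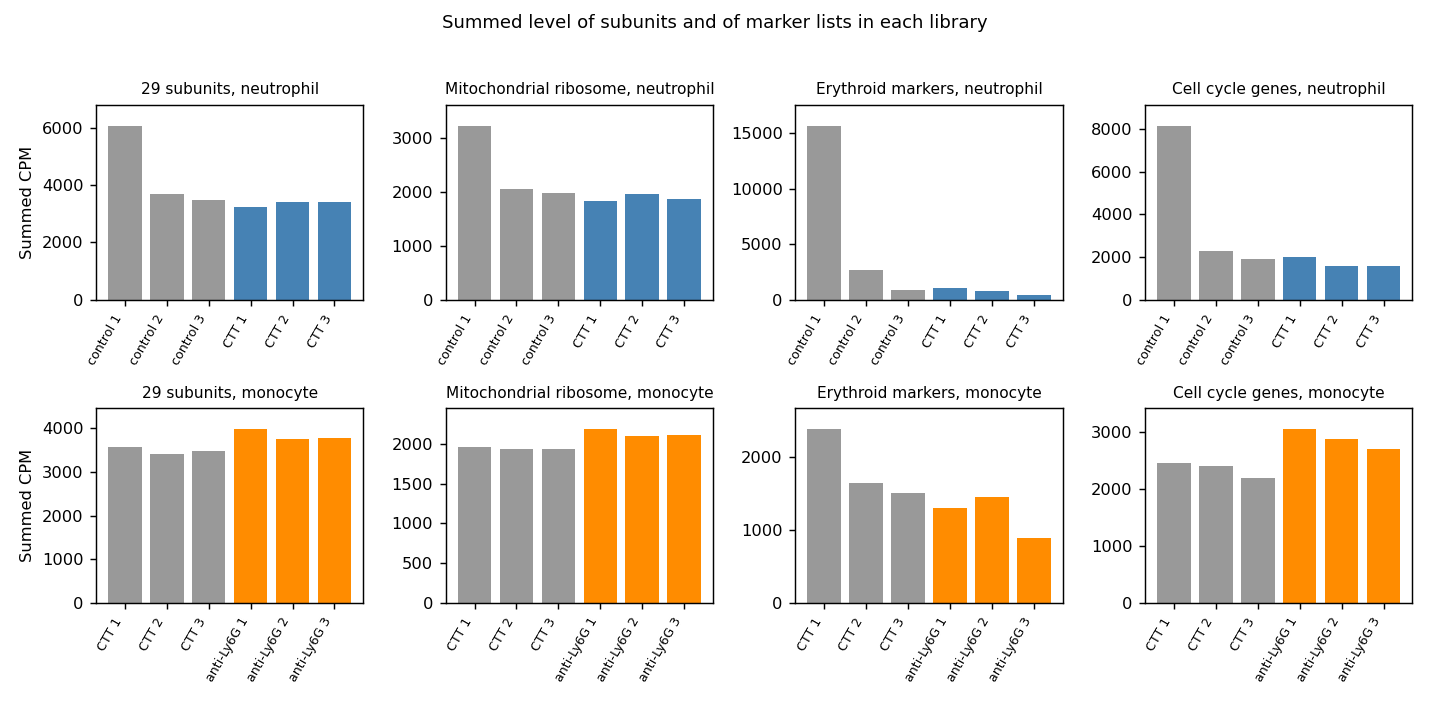
Summed level (CPM) in each library of the 29 subunits, 78 mitochondrial ribosomal proteins, 14 erythroid markers and 20 cell cycle genes, with neutrophil libraries in the upper row and monocyte libraries in the lower row, 1 bar per library. Control replicate 1 is the tallest neutrophil bar in all 4 panels, at 6052 CPM for the subunits, and the 3 anti-Ly6G bars of the subunits, at 3753 to 3978 CPM, stand above the 3 CTT bars, at 3420 to 3567.

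Complex I, the entry point for electrons from NADH, summed to 679, 420 and 383 CPM in controls 1 to 3 and to 342, 376 and 361 after CTT. Ndufs3, a core subunit of the arm that faces the matrix, had the smallest p of the complex, with 67.8, 44.0 and 37.4 CPM in the controls and 30.8, 36.8 and 33.6 after CTT. Its groups did not overlap, and its log2 fold change was −0.56 (SE 0.23, adjusted p 0.351). Ndufa5, an accessory subunit, had the most negative change of the complex, −0.66 (SE 0.38, adjusted p 0.429). It was at 34.8 CPM in control replicate 1, at 13.3 and 14.4 in the other controls and at 13.5, 15 and 11.1 after CTT, so its groups overlapped.

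Complex II, which is also an enzyme of the citric acid cycle, summed to 640, 457 and 433 CPM in the controls and to 387, 418 and 401 after CTT. Sdhb, its iron-sulfur subunit, was at 94.6, 67.0 and 66.6 CPM and at 52.3, 60.6 and 57.3, lower in every CTT library (log2 fold change −0.42, SE 0.17, adjusted p 0.35). Sdhd, an anchor in the membrane, had the most negative change, −0.55 (SE 0.29, adjusted p 0.399), and its groups overlapped. Sdhd stood at 124 CPM in control replicate 1 and between 54.6 and 71.8 in the other 5 libraries.

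Complex III passes electrons from ubiquinol to cytochrome c, and it summed to 711, 431 and 406 CPM in the controls and to 362, 393 and 399 after CTT. Cyc1 had the most negative change of all members (−0.68, SE 0.34, adjusted p 0.388), from 145, 73.8 and 55.2 CPM to 52.0, 61.8 and 57.2. Its control replicates 2 and 3 lay above and within the range of the CTT libraries. Uqcrfs1, the Rieske iron-sulfur protein, had the smallest p of the complex (−0.35, SE 0.17, adjusted p 0.376) and did not overlap, with 102, 71.7 and 72.5 CPM against 63.5, 60.9 and 68.6.

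Complex IV, the oxidase, summed to 880, 574 and 534 CPM in the controls and to 508, 554 and 544 after CTT. Cox5a, a nuclear-encoded subunit on its matrix side, had the smallest p of all 29 members, with 87.7, 61.0 and 57.6 CPM in controls and 42.9, 49.96 and 49.03 after CTT. The groups did not overlap, and the log2 fold change was −0.54 (SE 0.19, adjusted p 0.324). Complex V summed to 3070, 1778 and 1696 CPM and to 1605, 1625 and 1643. Atp5o, the stalk subunit OSCP, had both the smallest p and the most negative change of complex V (−0.57, SE 0.27, adjusted p 0.379), with 200, 108 and 96.5 CPM against 90.4, 95.9 and 86.3. Atp5b, the most abundant member, was at 1494, 793 and 742 CPM against 698, 683 and 715 (−0.53, SE 0.27, adjusted p 0.393). Cycs was at 71.8, 36 and 29.6 CPM against 27.2, 37.0 and 43.4 (−0.35, SE 0.35, adjusted p 0.631), and without control replicate 1 its change was 0.13, so that its direction turned.

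**Figure D3:**
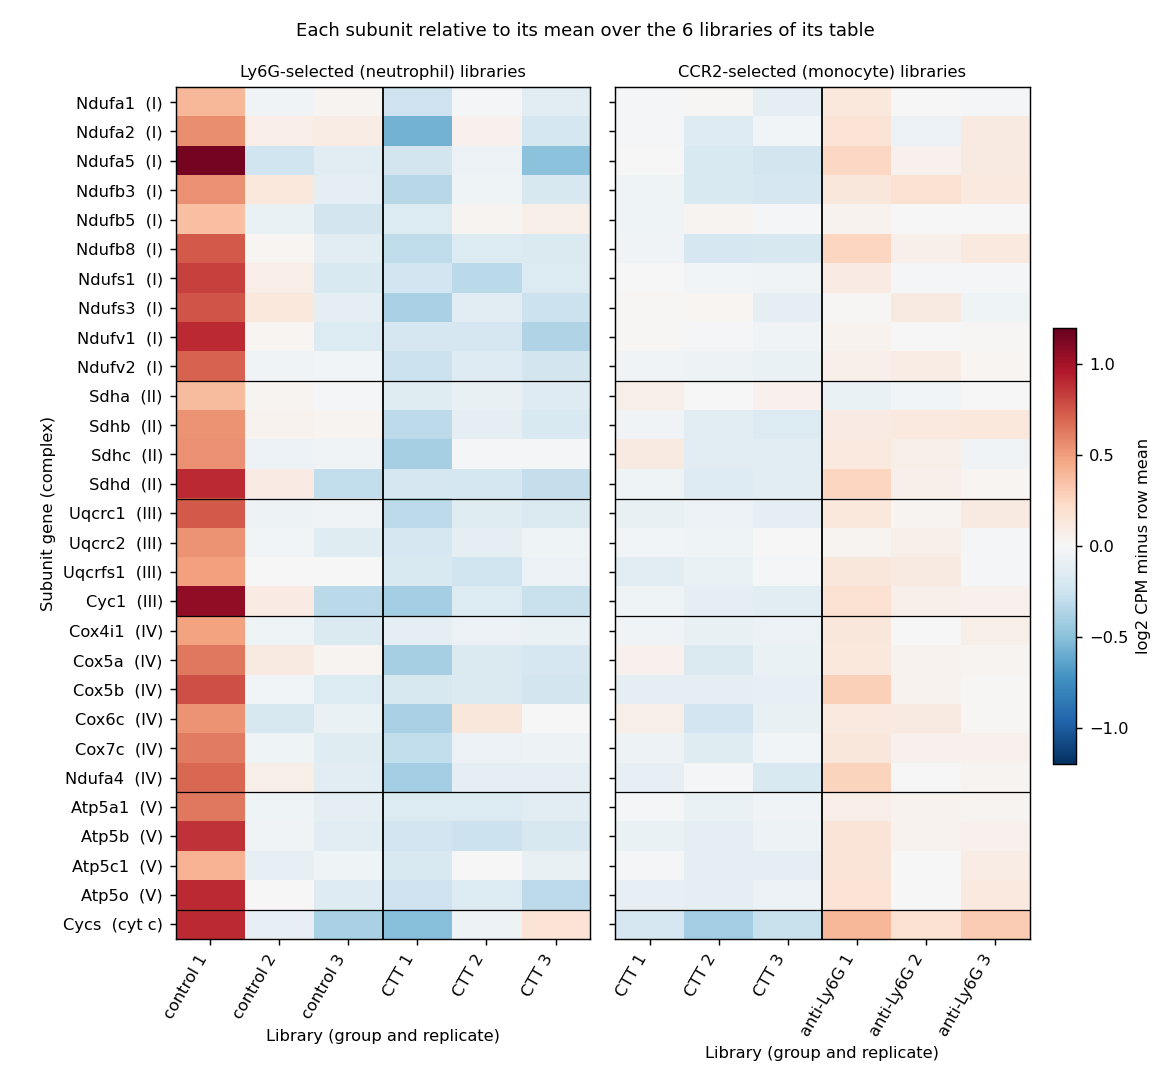
Level of each subunit (rows, grouped by complex) in each library (columns), as log2 CPM minus the mean of that row over the 6 libraries of its table. The column of control replicate 1 is the highest of its table in all 29 rows, as it was for 36% of all tested genes. In the monocyte panel 18 rows are higher in all 3 anti-Ly6G libraries than in any CTT library, as were 20.6% of all tested genes.

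In monocytes, the comparison of anti-Ly6G with CTT alone addresses how monocytes differ in mice given this antibody around the therapy. In these libraries the mean level of Ly6g, its target, was higher with anti-Ly6G (56.1 CPM) than without (13.6 CPM), and 13 of 15 neutrophil markers rose. Cytochrome c, 2 accessory subunits of complex I and the iron-sulfur subunit of complex II rose with anti-Ly6G, and no member fell (edgeR's quasi-likelihood test, adjusted p under 0.05). These 4 of 29, or 13.8%, stand near the 10.2% of all 13294 tested genes that rose, while 5.12% fell. With upper quartile scaling, where 8.04% of tested genes rose, only Cycs passed, and the split over all tested genes went from 1354 risen and 681 fallen to 1069 and 1030. The fitted changes were above 0 for 28 members and below 0 for Sdha, with a median of 0.16 against 0.00 over all tested genes, but with upper quartile scaling 24 were above 0 and 5 below, and with library totals 27 and 2. In 18 members (62.1%) every anti-Ly6G library was above every CTT library, against 20.6% of all tested genes, and in 1 (Sdha) every one was below, against 15.4%. At an unadjusted p under 0.05, 16 members were higher, where 17.5% of all tested genes were.

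Cycs rose most of the members. It was at 39.3, 33.8 and 37.5 CPM after CTT and at 59.8, 51.2 and 55.9 with anti-Ly6G, so the groups were well apart. The log2 fold change was 0.59 (SE 0.08, adjusted p 0.00261), and it passed with every scaling, filter and test tried and with each library left out. Ndufb3, an accessory subunit of the membrane arm of complex I, was at 32.2, 29.3 and 28.9 CPM against 36.7, 37.9 and 36.2 (0.29, SE 0.07, adjusted p 0.0301). Ndufb8, from the same arm, was at 60.2, 53.7 and 54.1 CPM against 73.8, 64.6 and 66.8 (0.29, SE 0.08, adjusted p 0.0354). Sdhb was at 83.2, 77.8 and 76.6 CPM against 91.6, 93.2 and 93.3 (0.23, SE 0.06, adjusted p 0.0322). No groups overlapped for these 4 genes. Ndufb3, Ndufb8 and Sdhb no longer passed when any single library other than CTT replicate 1 was left out, which left Cycs alone, where 5.22% to 6.87% of tested genes rose. Without CTT replicate 1, where 12.5% rose, 7 members passed, with Sdhd, Cyc1 and Cox6c added. Ndufb8 also lost its call on log2(FPKM + 1) and log2(FPKM + 0.1).

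**Figure D4:**
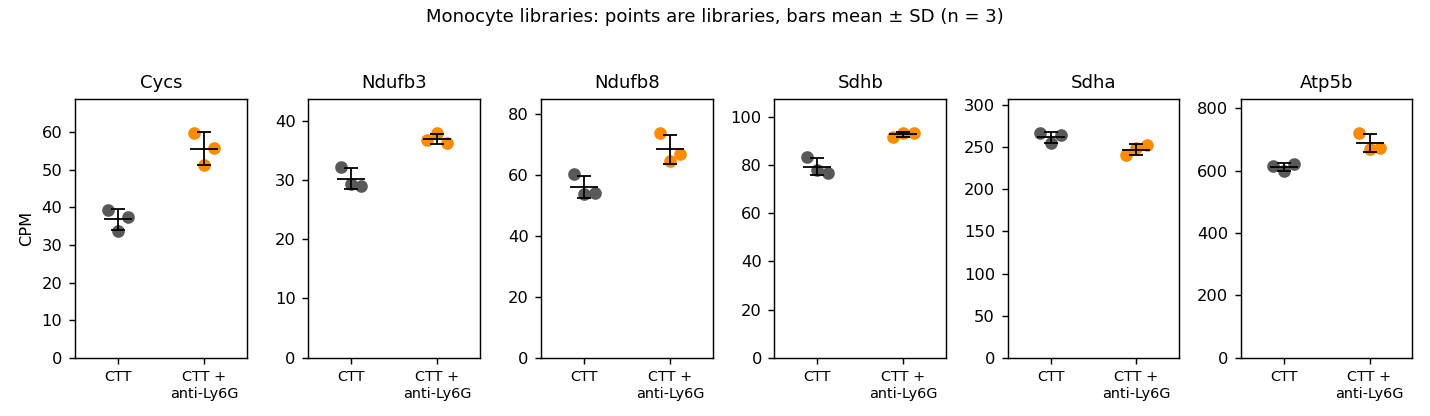
Level (CPM) of 6 subunit genes in the monocyte libraries after CTT and after CTT with anti-Ly6G, with a point for each library, a bar for the mean and whiskers for the SD (n = 3). Cycs rises from 36.9 to 55.6 CPM on average, Ndufb3, Ndufb8 and Sdhb rise without overlap, and Sdha and Atp5b, which did not pass the test, are shown for contrast.

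All 37 tested nuclear subunits of complex I, the 10 members among them, were also read as core and accessory subunits, whose ranges overlapped. The 7 core subunits that carry the redox centres and conserved fold of the matrix arm, 4 of them members, had log2 fold changes between 0.03 and 0.13 with a median of 0.05, and 0 of 7 rose. The 30 accessory subunits had a median of 0.20, from 0.03 to 0.41, and 5 of 30 rose, or 16.7%. Among all tested genes 10.2% rose. With any single library other than CTT replicate 1 left out, Ndufb3 and Ndufb8 no longer passed. Of the 27 complex I subunits outside the members, 1 then rose in each fit, where 5.22% to 6.87% of tested genes did. Ndufs1, the core subunit with most iron-sulfur clusters, was at 76.5, 74.5 and 73.8 CPM against 81.6, 75.3 and 75.5 (0.05, SE 0.06, adjusted p 0.632), with overlapping groups. Ndufv1, which binds NADH, had a change of 0.03 (SE 0.06, adjusted p 0.747), and Ndufa5 one of 0.27 (SE 0.11, adjusted p 0.115). The split into core and accessory was made after values were seen, and the difference between the sets was not tested.

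Gene length moved with these changes over the whole table. Among tested genes shorter than 1000 bases the median log2 fold change was 0.10 and 14.2% rose, while among genes of 4000 bases or more the median was −0.05 and 8.14% rose. The complex I core genes had a median length of 1608 bases and the accessory genes one of 679. Within the class under 1000 bases, the 49 listed nuclear subunits had a median of 0.21 and 8 rose, and from 1000 to under 2000 bases the 26 subunits had a median of 0.16 and 7 rose, where 12.7% of tested genes of that length did. In neutrophils the order was the reverse, with a median of −0.16 under 1000 bases and 0.04 at 4000 bases or more. The length classes were added after the data were seen, and their part in the changes of the subunits was not tested.

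The catalytic subunits of complex II, Sdha and Sdhb, had fitted changes of opposite sign. Sdha was at 267, 255 and 264 CPM after CTT and at 240, 249 and 253 with anti-Ly6G, without overlap, and did not pass the test (log2 fold change −0.08, SE 0.05, adjusted p 0.345). The ratio of Sdhb to Sdha on the FPKM scale was 0.826, 0.809 and 0.769 in CTT monocytes and 1.01, 0.992 and 0.977 with anti-Ly6G, a mean of 0.801 ± 0.0292 against 0.993 ± 0.0163 (SD, n = 3). All 3 libraries of the second group lay above all of the first, and the exact permutation p was 0.1, the smallest that 3 against 3 allows. Every anti-Ly6G library was above every CTT library for Sdhb and below for Sdha. The separation of the ratio and its p were therefore fixed in advance and add no support. In neutrophils the ratio was 0.718 ± 0.0385 in controls and 0.651 ± 0.0385 after CTT, with an exact permutation p of 0.1. The anchors Sdhc and Sdhd changed by 0.09 (SE 0.08, adjusted p 0.479) and 0.23 (SE 0.07, adjusted p 0.0710). This ratio and that of Cycs to Cyc1 were among 5 ratios taken in each table, chosen after values were seen.

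Complex III summed to 422, 423 and 425 CPM after CTT and to 481, 465 and 457 with anti-Ly6G. Uqcrc1 had the smallest p (0.18, SE 0.06, adjusted p 0.0576), with 145, 148 and 143 CPM against 169, 159 and 167, and Cyc1 the largest change (0.20, SE 0.06, adjusted p 0.0624), with 79.1, 75.6 and 74.5 against 92.7, 85.5 and 84.7. Neither passed the threshold, and for both the groups did not overlap. Uqcrc1 passed with DESeq2, which called 5 members, where 11.8% of tested genes rose, and Cyc1 passed without CTT replicate 1 and with the replicate block. Cytochrome c is reduced by cytochrome c1, and the ratio of Cycs to Cyc1 in FPKM was 0.238 ± 0.0150 in CTT monocytes and 0.313 ± 0.0155 with anti-Ly6G (exact permutation p 0.1, again the smallest possible). In neutrophils it was 0.250 ± 0.0126 and 0.309 ± 0.0591 (exact permutation p 0.2).

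In complex IV, which summed to 638, 599 and 613 CPM against 731, 665 and 671, Cox5b had both the smallest p and the largest change (0.23, SE 0.08, adjusted p 0.0816). Cox5b binds zinc on the matrix side, and it was at 80.8, 80.7 and 81.6 CPM against 107, 90.2 and 88.4, with the first anti-Ly6G library well above the other two. The same library was the highest of the 6 for Atp5b, at 721 CPM against 668 and 673 in its group and 598 to 621 after CTT (0.17, SE 0.06, adjusted p 0.0800). In complex V, which summed to 1481, 1429 and 1468 CPM against 1673, 1571 and 1592, Atp5o had the smallest p and the largest change (0.19, SE 0.06, adjusted p 0.0723), with 86.0, 85.4 and 87.8 CPM against 104, 92.3 and 99.9. All 4 members of complex V were higher without overlap, as were 20.6% of all tested genes, and none of the 4 passed the threshold. The ratio of Atp5b to Atp5c1 in FPKM was 3.55 ± 0.149 and 3.58 ± 0.0979 (exact permutation p 0.9), so the catalytic and central subunits differed in their changes by less than the spread between libraries.

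**Figure D5:**
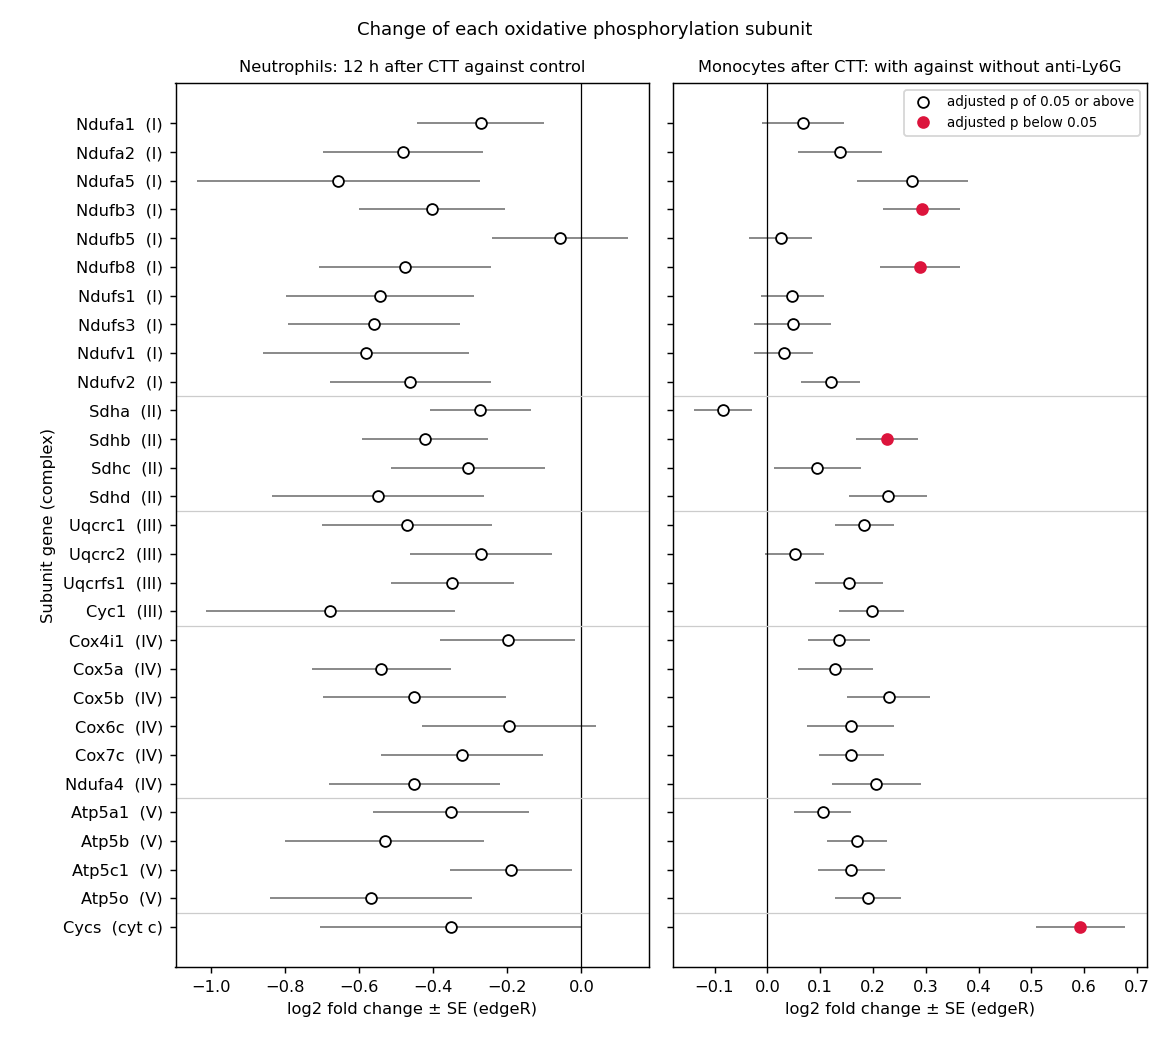
Log2 fold change of each subunit with its standard error (edgeR), for CTT against control neutrophils on the left and anti-Ly6G against CTT alone in monocytes on the right, on axes of different range. Filled points have an adjusted p below 0.05: none on the left and Ndufb3, Ndufb8, Sdhb and Cycs on the right, where Sdha is the only point below 0.

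Composition and other states moved beside the monocyte result. Among all 13294 tested genes 10.2% rose, 5.12% fell and 13.4% were lower at an unadjusted p under 0.05. With anti-Ly6G the sum of the 15 neutrophil markers went from 4935 to 6970 CPM after CTT to 13756 to 18740, and of 10 monocyte markers 8 rose and 1 fell, with sums of 4534 to 7064 and 7582 to 8793. Of 10 red pulp macrophage markers 6 fell, and of 14 erythroid markers 3 fell, with erythroid sums of 1514 to 2388 and 891 to 1452 CPM. Of 10 B cell markers 2 fell, with sums of 3883 to 5636 and 3001 to 4120 CPM, and all 10 were lower at an unadjusted p under 0.05. Of 11 T and NK cell markers 4 rose and 1 fell, and of 7 platelet markers 1 rose. Of 20 cell cycle genes 11 rose, from sums of 2192 to 2461 CPM to 2693 to 3047, with Ccna2 and Ccnb1 changed by 0.60 and 0.67. With 1 library left out, 1.31% to 8.64% of tested genes fell and 5.22% to 12.5% rose. In those fits 1 to 8 red pulp macrophage, 0 to 3 erythroid and 0 to 10 B cell markers fell, and 11 to 14 neutrophil markers rose. The part of these shifts in the subunit levels was not tested.

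The remaining nuclear subunits of the same complexes were read from a list of 55. In monocytes 3 of 27 in complex I rose (Ndufb7 by 0.41, Ndufa13 by 0.27 and Ndufs4 by 0.24), 3 of 5 in complex III (Uqcrq by 0.37, Uqcrb by 0.24 and Uqcr11 by 0.44), 4 of 10 in complex IV (Cox7a2 by 0.34, Cox7b by 0.28, Cox6b1 by 0.22 and Cox6a1 by 0.26) and 3 of 13 in ATP synthase (Atp5j by 0.36, Atp5g1 by 0.40 and Atp5pb by 0.24). None fell. Together with the members, 17 of 84 nuclear subunits rose, or 20.2%, against the 10.2% of all tested genes, and their median was 0.19. That excess was not seen under every setting: with upper quartile scaling 6 of 84 rose (7.14%), against 8.04% of tested genes, and with any single library other than CTT replicate 1 left out 3 to 5 rose (3.57% to 5.95%), against 5.22% to 6.87%. Of the 10 other complex IV subunits 0 rose with upper quartile scaling or with any library other than CTT replicate 1 left out. On log2(FPKM + 1) and log2(FPKM + 0.1) 0 rose as well, where 5.21% and 5.41% of tested genes did. With library totals or DESeq2 size factors 1 rose, where 8.84% and 9.16% of tested genes did. With DESeq2, limma-voom or the replicate block 4 rose, where 11.8%, 10.3% and 11.7% of tested genes did. In neutrophils 0 of 83 passed the test, with a median of −0.36 and 2 fitted changes above 0.

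The lists around the complexes were counted in the same monocyte fit, where 10.2% of all tested genes rose and 5.12% fell. Of 45 assembly factors 0 rose and 0 fell in monocytes, with a median of 0.03, and the smallest adjusted p was that of Cox17, a copper chaperone for complex IV (0.27, adjusted p 0.0520). Of 14 regulators of mitochondrial biogenesis 1 fell, the coactivator Ppargc1b (−0.44, adjusted p 0.0409), from 19.1 to 14.1 CPM, while Nrf1, a transcription factor of many subunit genes, changed by 0.17 (adjusted p 0.132) and Tfam by −0.09 (adjusted p 0.371). Among 16 genes of the citric acid cycle and pyruvate dehydrogenase, Mdh2 rose by 0.21 and Suclg2 fell by 0.32. Of 78 mitochondrial ribosomal proteins 4 rose (Mrpl33, Mrpl17, Mrpl12 and Mrpl4), a smaller share than that of all tested genes, with a list median of 0.12. Of 10 inner membrane carriers Slc25a5, an ADP/ATP carrier, rose by 0.19, and of 12 import proteins and chaperones Tomm22 rose by 0.20 and Hspe1 fell by 0.26. No carrier or import gene rose with DESeq2 size factors, upper quartile scaling, library totals or no filter, nor with any library other than CTT replicate 1 left out. In the latter 5 fits 5.22% to 6.87% of tested genes rose and 1.31% to 3.92% fell. There no biogenesis regulator fell, no citric acid cycle gene rose and 2 to 4 mitochondrial ribosomal proteins rose. Import genes fell in 1 of the 5 fits and citric acid cycle genes in 3. No regulator fell on log2(FPKM + 1) or log2(FPKM + 0.1), and no citric acid cycle gene rose with upper quartile scaling or library totals.

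Glycolysis, the pathway that makes ATP without oxygen, was counted beside them. Of its 16 genes 15 rose in monocytes with anti-Ly6G, where 10.2% of all tested genes did, and their median was 0.49. The lactate exporter Slc16a3 (1.14), Pkm (0.79), Pgk1 (0.70) and Eno1 (0.64) had the smallest p. The summed level of the 16 genes was 2994 to 3234 CPM after CTT and 4456 to 5046 with anti-Ly6G, a difference in means of 51.2%, while that of the 29 subunits differed by 9.87%. In neutrophils 0 of the 16 passed, and Slc16a3 (1.14, adjusted p 0.0635) and Slc2a1, a glucose transporter (0.97, adjusted p 0.166), came nearest. Of the 16, 2 rose with DESeq2, where 3.48% of tested genes did, and 2 without control replicate 1, where 1.93% did. The glycolytic sum was 3893 CPM in control replicate 1, 3369 and 3304 in the other controls and 3480 to 4197 after CTT, so that library did not stand apart there as it did for the subunits.

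The stretches upstream of the 4 genes that rose in monocytes are shown because nuclear respiratory factor 1 (NRF1), ETS factors such as GABP, and YY1 are known regulators of subunit genes. Each run below is the 250 bases before the annotated start, 5′ to 3′ on the strand of the gene, from RefSeq on GRCm38.p6, and capitals mark a match to the NRF1 core GCATGCGC.

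Cycs (chr6:50566570-50566819, minus strand): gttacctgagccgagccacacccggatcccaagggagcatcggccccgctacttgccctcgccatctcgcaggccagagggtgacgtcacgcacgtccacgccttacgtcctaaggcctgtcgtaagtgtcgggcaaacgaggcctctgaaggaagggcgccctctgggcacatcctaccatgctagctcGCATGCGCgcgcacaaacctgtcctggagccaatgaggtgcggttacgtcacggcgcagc
Sdhb (chr4:140961021-140961270, plus strand): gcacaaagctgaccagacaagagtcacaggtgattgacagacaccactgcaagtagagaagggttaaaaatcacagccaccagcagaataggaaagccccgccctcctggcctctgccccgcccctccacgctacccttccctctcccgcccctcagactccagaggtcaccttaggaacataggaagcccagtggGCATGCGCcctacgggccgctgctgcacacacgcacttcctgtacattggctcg
Ndufb3 (chr1:58586147-58586396, plus strand): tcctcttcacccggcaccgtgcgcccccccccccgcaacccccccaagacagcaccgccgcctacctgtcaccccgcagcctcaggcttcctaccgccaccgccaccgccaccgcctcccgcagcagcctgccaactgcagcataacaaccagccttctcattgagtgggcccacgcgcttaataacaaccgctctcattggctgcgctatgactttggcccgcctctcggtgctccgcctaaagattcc
Ndufb8 (chr19:44555443-44555692, minus strand): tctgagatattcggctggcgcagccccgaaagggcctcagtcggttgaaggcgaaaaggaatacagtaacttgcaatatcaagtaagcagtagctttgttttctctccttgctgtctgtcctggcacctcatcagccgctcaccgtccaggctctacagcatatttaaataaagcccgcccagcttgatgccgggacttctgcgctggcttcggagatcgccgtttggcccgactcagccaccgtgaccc

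Windows from 250 bases before to 50 after the start were at hand for 21 of the 29 members, and they were searched on both strands for GCATGCGC (NRF1), CCGGAAG (ETS) and AAGATGGC (YY1), none of which contains another. The NRF1 core lay 60 to 53 bases before the start of Cycs and 54 to 47 before that of Sdhb, and it was also found in the window of Uqcrc1. These 3 of 21 members are 14.3%, beside 3.05% of the 27025 windows of all genes and 16.7% of 48 windows of the other listed subunits. The ETS core was held by Ndufs3, Sdhb and Sdhd, 14.3% beside 9.93% of all windows and 29.2% of those of the other subunits. The YY1 core was found in Ndufb8 alone, 4.76% beside 3.19% and 18.8%. Ndufb3 had no match in this window. A match is a run of letters and was not tested as a site.

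Counts of some members are less certain. The longest coding transcripts of 8 members had a copy elsewhere in the genome annotation with at least 95% identity over at least 200 bases, among them Cycs with 4 copies, Cox6c with 2, and Ndufb3, Ndufs3, Cox5b, Cox7c, Atp5c1 and Atp5o with 1 each, and reads shared with a copy may be lost or moved. Exons of 11 members overlapped another gene, including Ndufb8, Ndufs3, Cox5a and Atp5o, and no source used here gives the strand setting of the counting. Of the 4 members that rose, Sdhb had neither a near copy nor an exon overlap.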

How the data were processed

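Total RNA of 12 spleen cell libraries was sequenced after selection with PE anti-Ly6G or PE anti-CCR2 (EasySep PE positive selection), per the series' design text. The labels' protocols name TRIzol and a VAHTS Universal V6 library kit. The submitters' processing notes name HISAT2, HTSeq and the mm10 build; no source used here gives versions, annotation or strand setting. The deposited counts are whole reads per gene and entered all main tests. The deposited FPKM, each a count over gene length and library total, were used for levels per length, ratios and alternatives. No column was left out (0 without a sample).

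Each table was fitted alone in R 4.3.3 with edgeR 4.0.16: filterByExpr (13058 neutrophil and 13294 monocyte genes kept), TMM, quasi-likelihood F test, two-sided, Benjamini-Hochberg adjustment over all tested genes, threshold 0.05. The SE is the log2 fold change divided by the square root of F. The common dispersion, as a coefficient of variation, came to 0.275 (neutrophils) and 0.114 (monocytes). Each library held 30942849 or more counts. The parts of counting error and of spread between libraries in the precision of single members were not separated.

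The members and lists were chosen with earlier results of these data known. All 29 members are accounted for; members past the threshold are named, as are, in each complex, that of smallest p and that of largest absolute change, the highest and lowest in FPKM, and up to 4 genes of smallest p from other lists. Other genes and the ratios were chosen after values were seen. Alternatives were other scalings and filters, DESeq2 1.42.0, limma 3.58.1 (voom, and trend on log2 FPKM plus 1 or 0.1), the replicate number as a block, and leaving out each library. The procedure was tested on simulated data. The simulated counts held no library that stood apart as neutrophil control replicate 1 did, so they cannot show how the procedure handles such a library.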

Additional observations from a re-analysis of the deposited data

How the results depend on the processing

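Under all 17 alternatives run in each table, no member rose or fell in neutrophils, and no member fell in monocytes. With upper quartile scaling 1 monocyte member rose, where 8.04% of tested genes did, and the median of the members was 0.11. With 1 library left out 1 to 7 members rose, where 5.22% to 12.5% of tested genes did. On log2(FPKM + 1) and log2(FPKM + 0.1) 3 members rose, with Ndufb8 lost, where 5.21% and 5.41% of tested genes did. With DESeq2 5 members rose, with Uqcrc1 added, where 11.8% of tested genes did. Directions turned without neutrophil control replicate 1 for Ndufb5 (0.14), Cox4i1 (0.0316), Cox6c (0.0689), Atp5c1 (0.000348) and Cycs (0.13), and the lowest values with 1 library left out were −0.17, −0.32, −0.33, −0.28 and −0.59. The log2 ratio of the mean Cycs levels ran from −0.59 to 0.13 in the same way. Without neutrophil CTT replicate 1, Ndufb5 was at 0.02. In monocytes upper quartile scaling gave −0.024 for Ndufb5, −0.00173 for Ndufs1, −0.00147 for Ndufs3 and −0.0181 for Ndufv1. Ndufb5 was at −0.00447 with library totals, −0.00364 on log2(FPKM + 1), with or without the minimum mean of 1 FPKM, and −0.0037 on log2(FPKM + 0.1). The summed level of complex III had a log2 ratio of 0.11 with library totals. The causes were not tested.

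Counts over all tested genes moved more. In neutrophils 455 rose and 107 fell with DESeq2, 8 rose on log2(FPKM + 1), 26 rose and 1 fell on log2(FPKM + 0.1), 49 rose and 1 fell with the minimum mean, and 0 to 257 rose and 0 to 31 fell with 1 library left out, the highest counts being those without control replicate 1. In monocytes 1030 fell with upper quartile scaling, 1204 with DESeq2, 322 on log2(FPKM + 1), where 883 rose, and 362 on log2(FPKM + 0.1). Leaving out 1 library gave 706 to 1687 risen and 177 to 1168 fallen.

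For each gene, log2 CPM was taken as a deviation from its group mean. Between same-numbered control and CTT neutrophil libraries these deviations correlated at 0.199, 0.00548 and 0.189. Between same-numbered monocyte libraries they correlated at 0.0651, −0.0267 and 0.0868. In both tables replicates 1 and 3 matched their own number best and replicate 2 did not. These values do not settle whether the numbers pair the libraries. With the replicate number as a block, 4 neutrophil genes rose and 1 fell, 1043 monocyte genes fell, and 6 members rose in monocytes, where 11.7% of tested genes rose, Sdhd and Cyc1 being added.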
